A study of Sus scrofa with 6 samples.

Results

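The smooth muscle and cytoplasmic actin genes are ACTG2, ACTA2 and ACTB, together with TAGLN, CNN1 and DES, which encode proteins that bind actin filaments or form the intermediate filaments of muscle. They were taken by gene symbol from the platform annotation, without regard to their values. All 6 genes were found, among 6765 genes with a probe set of their own, and they were measured by 9 of 23999 probe sets. ACTG2, ACTB and DES had 2 probe sets each, named here by the ends of their identifiers (A1_at and S1_at), and ACTA2, TAGLN and CNN1 had 1 each. All 9 were tested without a filter on low signals.

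Total RNA of IPEC-1 cells, a non-transformed epithelial line from the small intestine of newborn piglets, was hybridized to 6 GeneChip Porcine Genome Arrays. In the 3 ALI (air-liquid interface) cultures only a thin film of liquid covered the apical side, whereas the 3 SMC (submerged membrane culture) wells held a column of medium. Both culture types grew on porous supports in the same medium with insulin, transferrin, selenium and epidermal growth factor, from which serum was withdrawn stepwise. The labels give passages P109, P111 and P113 for replicates 1, 2 and 3 of each culture type, so that the replicates are separate passages of 1 cell line, and they also call the sample liver in a free-text field, which was not used.

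Actin filaments are built from closely related actins. ACTA2 and ACTG2 are the smooth muscle actins, and ACTB and ACTG1 are the cytoplasmic actins of nearly every cell, where they form stress fibres, the cortex and the core of microvilli. TAGLN (transgelin) and CNN1 (calponin) bind actin filaments in smooth muscle cells, and DES (desmin) forms intermediate filaments there. Many of these genes are controlled by the transcription factor SRF with its cofactors MRTF and myocardin, and MRTF is held back by monomeric actin. The actin proteins are nearly identical, and how well each probe set tells the transcripts apart was not tested.

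The labelled epithelial identity was checked first. All 12 listed epithelial markers carried a probe set, and only TJP1 lay below the 25% quantile of every array (4.52 to 4.62 log2 units), a level below which a signal is not shown to be above background. EPCAM, an epithelial adhesion molecule, read 13.44, 13.34 and 13.40 log2 units in ALI cells and 13.35, 13.30 and 13.31 in SMC cells. None of the 12 was called between the culture types on its brightest probe set (limma), and 1 was lower in ALI cells when any probe set counted. At an unadjusted p under 0.05 in limma, 0 were higher and 1, VIL1, was lower, where 7.1% and 8.91% of all genes were. Of the 10 listed smooth muscle markers 8 were measured, and the summed signal of these 8 was 10.3 to 11.4 log2 units in ALI cells and 11 to 11.2 in SMC cells. TAGLN was the brightest of them on every array, at 9.07 to 10.97 in ALI and 9.74 to 10.46 in SMC cells. The sum therefore says little about the dimmer markers. MYH11, the myosin that defines smooth muscle, and LMOD1 were not analysed here. As these are bulk cultures, fewer cells of a type and less RNA per cell cannot be told apart.

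ACTG2, the gamma actin of enteric smooth muscle, was the only member called between ALI and SMC cells, where it was lower in ALI cells on 1 of its 2 probe sets. On its A1_at probe set the log2 signal was 5.67, 5.43 and 6.44 in ALI cells at passages P109, P111 and P113, against 8.41, 7.81 and 9.30 in SMC cells. All ALI arrays lay below all SMC arrays, and none of the 6 values was below the 25% quantile of its array. Averaged over 3 arrays each, it was 5.84 ± 0.53 (SD) in ALI cells, against 8.51 ± 0.746 (SD) in SMC cells. The signal was thus 6.32-fold lower in ALI cells, with a 95% confidence interval of 3.46-fold to 11.6-fold. The log2 fold change was -2.66 (standard error 0.38, adjusted p = 0.0158 over all probe sets, limma).

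The fall of this ACTG2 signal was of similar size in each passage. The ALI minus SMC difference was -2.74 at passage P109, -2.39 at passage P111 and -2.85 log2 units at passage P113. The level itself moved with passage in both culture types, being lowest at passage P111 and highest at passage P113. With the passage as a block, the standard error was 0.12 and the adjusted p was 7.65e-05. Leaving out ALI replicate 1 ended the call (log2 fold change -2.57, adjusted p = 0.081).

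The other ACTG2 probe set gave a different picture. On S1_at, the log2 signal was 6.04, 6.26 and 4.37 in ALI cells and 4.78, 5.04 and 4.82 in SMC cells at passages P109, P111 and P113. The ALI arrays of passages P109 and P111 lay above all SMC arrays, whereas that of passage P113 lay below all of them and below the 25% quantile of its array. The log2 fold change was 0.68 (95% confidence interval -0.30 to 1.66, adjusted p = 0.528). Without ALI replicate 3, the array of passage P113, it was 1.27 with an adjusted p of 0.00831, so that 1 array decided whether the probe set passed the test. Without that array, 0.725% of all probe sets were called higher in ALI cells. When both ACTG2 probe sets were averaged, the log2 fold change was -0.99 (adjusted p = 0.043).

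The 2 ACTG2 probe sets were set against each other on each array. The signal of A1_at minus that of S1_at averaged 0.29 ± 1.56 log2 units in ALI cells and 3.63 ± 0.851 in SMC cells (SD over 3 arrays each), without overlap. The difference of -3.34 had a p of 0.1 in an exact two-sided permutation test, the smallest that 3 against 3 arrays allow, and 0.3 after Benjamini-Hochberg adjustment over the 3 genes with 2 probe sets. For ACTB, the corresponding difference between probe sets was -0.12 (exact p = 0.3), and for DES none is given, since A1_at lay below the 25% quantile on all arrays. ACTG2 was called on A1_at and not on S1_at, and the transcripts that the probe sets detect were not used here.

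**Figure D1:**
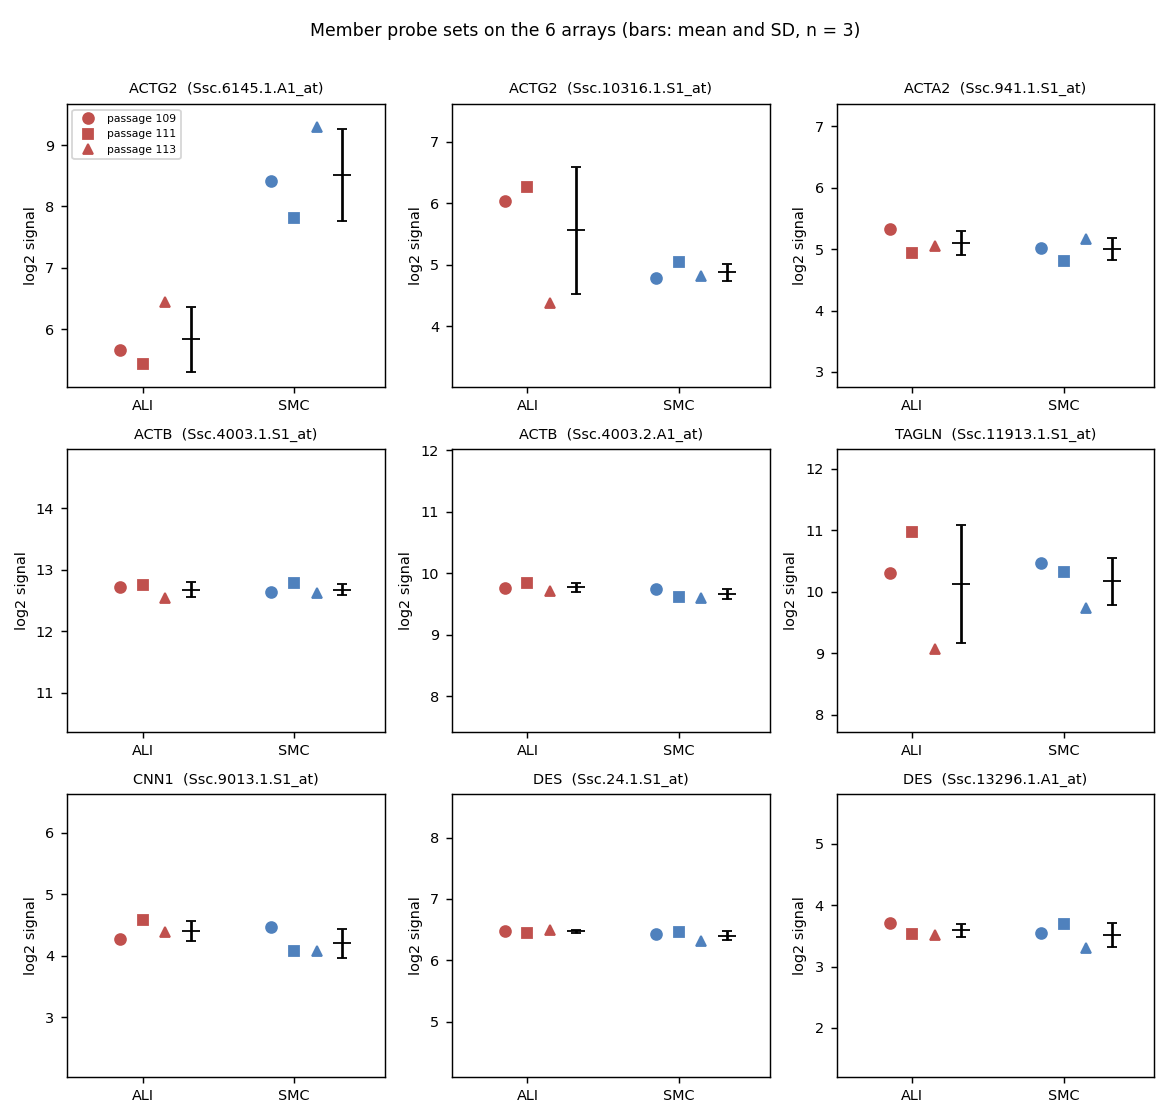
Log2 signal of the 9 probe sets on each array, ALI on the left and SMC on the right of each panel, with the symbol giving the passage and the black bar the mean and SD of 3 arrays. Every panel spans the same number of log2 units. The ALI and SMC arrays are separate for ACTG2 A1_at (5.43 to 6.44 against 7.81 to 9.30) and overlap in the other panels.

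ACTA2, the alpha actin of vascular smooth muscle and of myofibroblasts, had a log2 signal of 5.32, 4.94 and 5.05 in ALI cells and 5.02, 4.80 and 5.17 in SMC cells. The groups overlapped, and the log2 fold change was 0.10 (95% confidence interval -0.22 to 0.43, adjusted p = 0.795). In ALI relative to SMC cells this interval covers 0.857-fold to 1.35-fold. The difference was 0.29 at passage P109, 0.14 at passage P111 and -0.12 at passage P113.

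ACTB, the cytoplasmic beta actin, served as a reference gene for qPCR and as the loading control for western blots in this study. Its brighter probe set, S1_at, read 12.72, 12.76 and 12.55 log2 units in ALI cells, against 12.64, 12.78 and 12.62 in SMC cells. The means differed by less than the spread between arrays, with a 95% confidence interval for the ratio of ALI to SMC cells of 0.841-fold to 1.19-fold (adjusted p = 0.997). The dimmer one, A1_at, read 9.76, 9.84 and 9.71 in ALI cells and 9.75, 9.62 and 9.60 in SMC cells. Its log2 fold change was 0.12 (95% confidence interval -0.11 to 0.35, adjusted p = 0.664).

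ACTG1, the other cytoplasmic actin, is not one of the 6 genes but had 6 probe sets of its own. The brightest read 14.46, 14.45 and 14.28 log2 units in ALI cells and 14.50, 14.41 and 14.34 in SMC cells, a difference of -0.02 (95% confidence interval -0.26 to 0.22, adjusted p = 0.959). The log2 fold changes of all 6 lay between -0.13 and 0.09, and none passed the test. Control probe sets along the same transcript differed by their position. The 3′ one averaged 14.47 log2 units in ALI and 14.47 in SMC cells, the middle one 13.38 in ALI and 13.50 in SMC cells, and the 5′ one 11.54 in ALI and 12.15 in SMC cells. The gap from 3′ to 5′, a sign of RNA integrity, was 2.74, 2.86 and 3.18 in ALI cells, against 2.24, 2.39 and 2.32 in SMC cells. The groups did not overlap (exact permutation p = 0.1, the smallest possible, and 0.317 after adjustment over 19 pairs of control probe sets), while the gap of a second set of actin controls overlapped, at 0.37, 0.38 and 0.53 in ALI and 0.31, 0.40 and 0.18 in SMC cells. Of the other pairs, a bright GAPDH control had the largest increase in gap, at 1.42, 1.37 and 1.70 in ALI cells against 0.56, 0.55 and 0.67 in SMC cells, a difference of 0.90. A further pair of probe sets of the same GAPDH control differed by -0.01 and overlapped. The largest decrease was that of the IRP control, at -1.17, with gaps of -0.62, -0.02 and 0.54 in ALI cells and 0.85, 1.33 and 1.24 in SMC cells. The 19 pairs include bacterial and phage controls, whose gaps do not bear on the RNA of the cells. The part of the gaps in the result for ACTG2 was not tested.

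**Figure D2:**
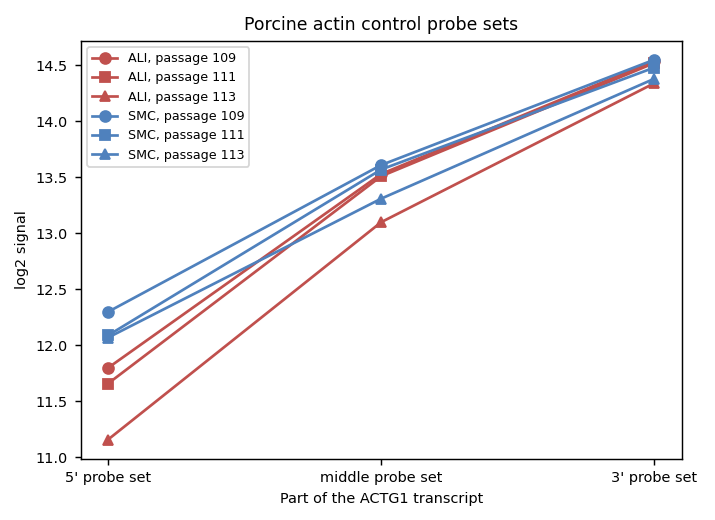
Log2 signal of the 5′, middle and 3′ control probe sets of porcine actin, which the annotation assigns to ACTG1, with 1 line per array and the colour giving the culture type. At the 5′ end the ALI arrays (11.16 to 11.80) lie below the SMC arrays (12.07 to 12.30), and at the 3′ end they overlap.

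TAGLN, an early marker of smooth muscle, had a clear signal in both culture types and varied more between passages than between culture types. It read 10.31, 10.97 and 9.07 log2 units in ALI cells and 10.46, 10.32 and 9.74 in SMC cells at passages P109, P111 and P113. Passage P113 was the lowest in both culture types. Over 3 arrays each it averaged 10.12 ± 0.962 (SD) in ALI cells and 10.17 ± 0.38 (SD) in SMC cells, which differ by -0.06. Its 95% confidence interval of -1.03 to 0.92 leaves room for a change of 2.05-fold down or 1.89-fold up (adjusted p = 0.972). The difference was -0.15, 0.65 and -0.67 log2 units at the 3 passages and thus had no common direction.

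CNN1, the basic calponin of differentiated smooth muscle, lay below the 25% quantile on all 6 arrays, with 4.27, 4.59 and 4.38 log2 units in ALI and 4.47, 4.07 and 4.07 in SMC cells. A fold change of such a signal is no exact size, and the log2 fold change of 0.21 did not pass the test (adjusted p = 0.569). DES was read by S1_at at 6.48, 6.44 and 6.49 in ALI cells and 6.43, 6.46 and 6.32 in SMC cells. This is close to the median of the arrays (6.34 to 6.39), and the log2 fold change was 0.07 (95% confidence interval -0.15 to 0.29, adjusted p = 0.808). The other DES probe set, A1_at, lay below the 25% quantile on all arrays, at 3.52 to 3.71 in ALI and 3.30 to 3.69 in SMC cells.

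Of the 9 probe sets, 1 was called lower and 0 were called higher in ALI cells by limma. Over all probe sets, 1.23% were lower and 0.663% were higher, and the median log2 fold change was 0.02. At an unadjusted p under 0.05 the counts were also 1 lower and 0 higher, both in limma, where 7.57% of all probe sets were lower and 6.77% were higher, and in the methods' t-test, where 5.93% were lower and 6.12% were higher. With the methods' t-test after adjustment, 0 were lower and 0 were higher, as was the case over all probe sets. Under the passage block, 1 was lower and 0 were higher, where 3.32% and 2% of all probe sets were called. Groups without overlap were seen for 1 of the 9 probe sets, with ALI below SMC, while 9.27% of all probe sets had ALI below SMC in this way.

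**Figure D3:**
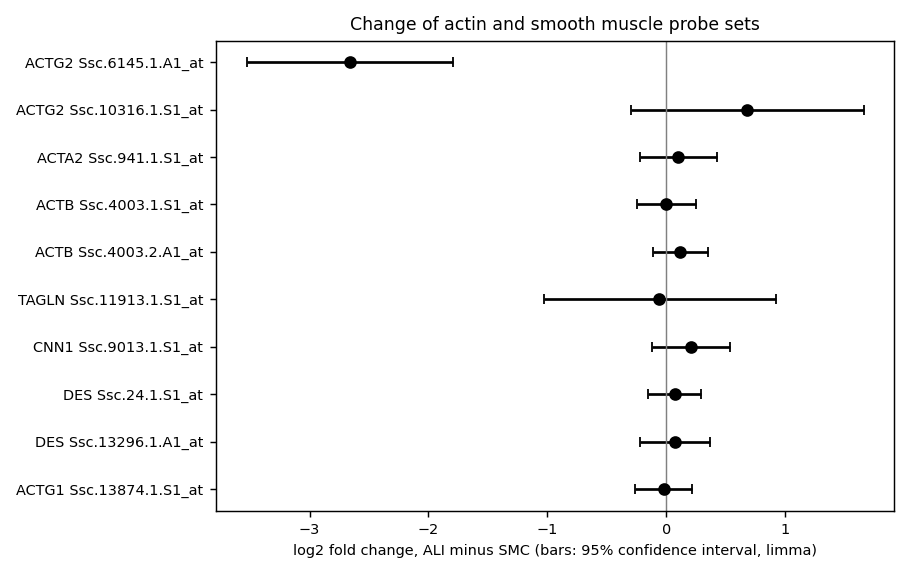
Log2 fold change (ALI minus SMC) of the 9 probe sets and of the brightest ACTG1 probe set, with the 95% confidence interval from limma. The interval of ACTG2 A1_at (-3.53 to -1.79) excludes 0, those of the other probe sets include it, and those of ACTG2 S1_at and TAGLN are the widest among the rest.

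The fall of ACTG2 A1_at was next set against each of the other 5 genes on the same array. For each pair the signals were subtracted within each array, and the ALI minus SMC difference of that value was -2.76 against ACTA2, -2.66 against ACTB, -2.60 against TAGLN and -2.73 against DES S1_at. CNN1, being below the 25% quantile on all arrays, gives no exact size. In all 5 pairs the ALI and SMC arrays were separate, as they already were for A1_at alone. Since A1_at is part of every pair, the 5 results are not independent and largely repeat its own fall. Each exact two-sided permutation test gave a p of 0.1, as did the adjustment over the 5 pairs, and 3 against 3 arrays cannot give a lower one.

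The 9 probe sets also differed in how much they varied among the arrays of a group. ACTG2 S1_at, TAGLN and ACTG2 A1_at had a within-group SD of 0.736, 0.732 and 0.647 log2 units, against a median of 0.156 over all probe sets, and lay at the 99.7, 99.7 and 99.4 percentiles. The SDs of ACTB were 0.103 and 0.0741 (21.4 and 9.13 percentiles), and that of DES S1_at was 0.0531 (3.26 percentile). ACTA2, CNN1 and the dim DES probe set lay between, at 0.159 to 0.199. The spread of ACTG2 S1_at came from ALI cells, with an SD of 1.03 there and 0.139 in SMC cells, whereas A1_at varied in both culture types.

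**Figure D4:**
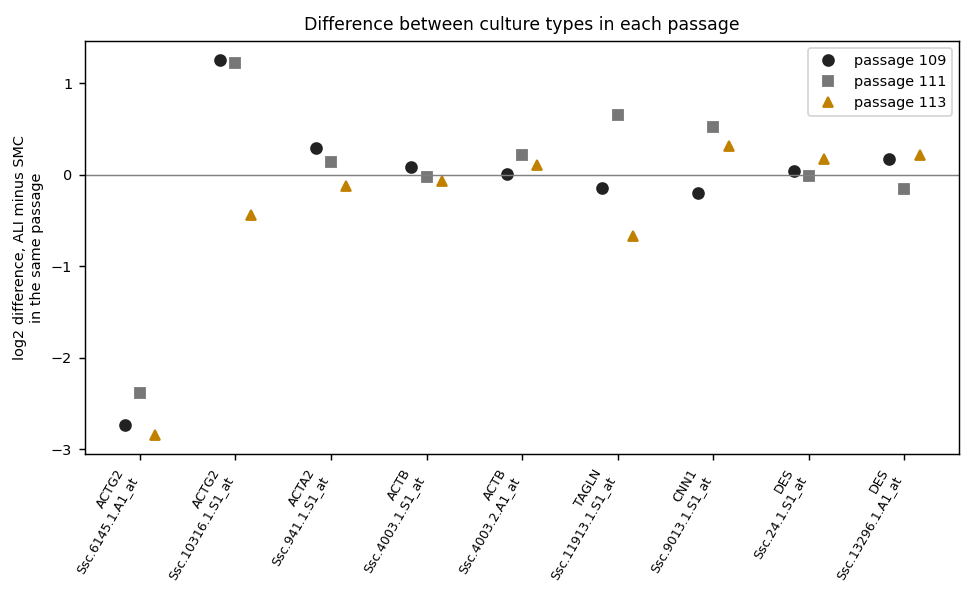
Difference in log2 signal between the ALI and the SMC array of the same passage for the 9 probe sets, with 1 symbol per passage. ACTG2 A1_at lies between -2.85 and -2.39 at all passages. All other probe sets apart from ACTB A1_at change sign, and of them ACTG2 S1_at (1.26, 1.22 and -0.44) and TAGLN (-0.15, 0.65 and -0.67) span the widest ranges.

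On the ALI array of passage P113, some of the contractile genes read lower than on the other ALI arrays. The P113 array minus the mean of the other 2 arrays was -1.77 log2 units in ALI and -0.09 in SMC cells for ACTG2 S1_at, and -1.57 in ALI and -0.65 in SMC cells for TAGLN. ACTG2 A1_at went the other way, at 0.89 in ALI and 1.19 in SMC cells. Further genes of the contractile apparatus, named after their values were seen, were likewise low on this ALI array, while the SMC array of the same passage differed from the other SMC arrays by -0.12 for MYL9, 0.03 for CALD1 and -0.08 for TPM2. MYL9, the regulatory light chain of smooth muscle and nonmuscle myosin, read 9.01, 9.26 and 8.24 in ALI cells and 8.53, 8.57 and 8.43 in SMC cells. CALD1 (caldesmon) read 12.75, 13.21 and 12.15 in ALI cells and 12.16, 12.51 and 12.36 in SMC cells, and the tropomyosin TPM2 read 6.63, 7.02 and 5.99 in ALI and 6.77, 6.99 and 6.80 in SMC cells. Of the 17 measured genes of the smooth muscle contractile list, 7 were more than 0.5 log2 units lower on this array than the mean of the other ALI arrays, as were 2.79% of all genes. The remainder did not fall that far, such as ACTA2 at -0.08 and MYLK at -0.02. Of the 7, PDLIM7 differed by -0.57 in both culture types. The P113 array was the lowest for 10 of the 17 genes in ALI and for 9 in SMC cells. Over all genes these shares were 32.9% and 38.8%. Each passage had 1 array per culture type, so that an effect of passage and one of a single array cannot be told apart.

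**Figure D5:**
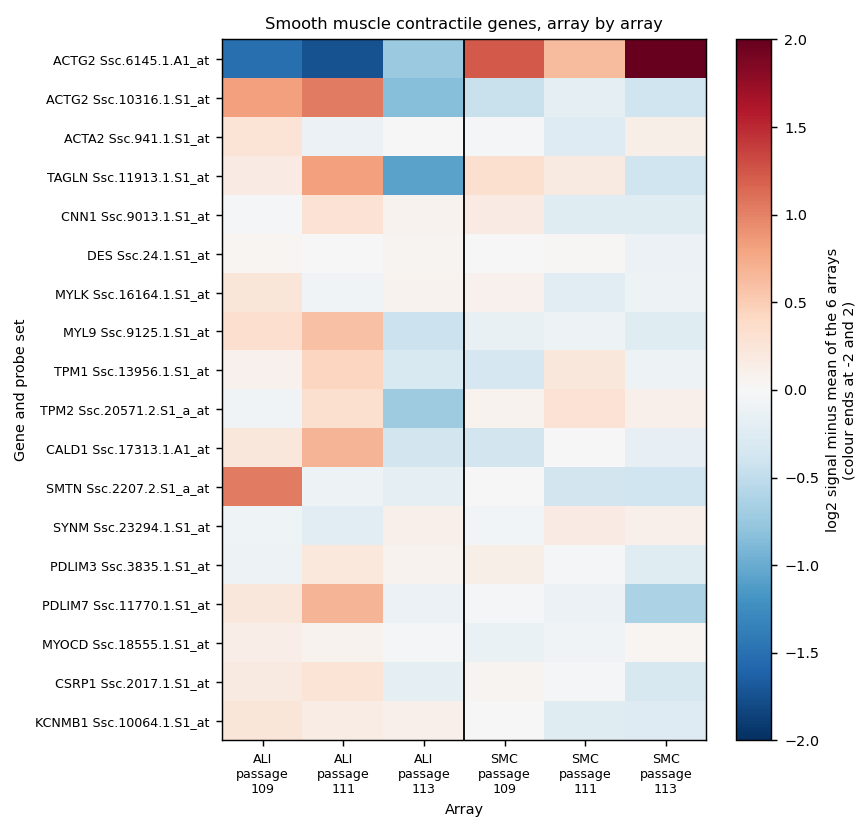
Log2 signal of the 17 measured genes of the smooth muscle contractile list, and of the second ACTG2 probe set, minus the mean of the 6 arrays, with ALI arrays left of the line and SMC arrays right of it. Red is above and blue below the mean. TAGLN, MYL9, CALD1, TPM2 and ACTG2 S1_at are lowest on the ALI array of passage P113, while ACTG2 A1_at separates the culture types. KCNMB1 also separates them, in the other direction and by less (7.61 to 7.75 in ALI against 7.26 to 7.52 in SMC cells).

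Among the 17 measured genes of the contractile list, which holds 5 of the 6 members and their regulators, ACTG2 was the only one called, and 0 were higher (1 higher and 1 lower at an unadjusted p under 0.05 in limma and in the methods' t-test). Over all genes 1.02% were higher and 1.51% were lower, and the median log2 fold change of the list was 0.14 against 0.01 over all genes. At an unadjusted p under 0.05, 7.1% of all genes were higher and 8.91% were lower in limma, and 7.1% and 7.07% in the methods' t-test, which is the background for the unadjusted counts of this and the other lists. With the passage as a block, 2.25% of all genes were higher and 3.75% were lower, and the list again held 0 and 1. MYOCD, the coactivator of SRF in smooth muscle, gave 0.11 (adjusted p = 0.711). Of 11 genes of the calponin, transgelin, tropomyosin and caldesmon family, none was called in either direction (0 higher and 1 lower at an unadjusted p under 0.05 in limma and in the methods' t-test). The farthest from 0 were CALD1 at 0.36 (adjusted p = 0.562) and TPM2 at -0.30 (adjusted p = 0.615). The other TPM2 probe sets gave -0.18, -0.02 and 0.15.

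Genes that assemble and turn over actin filaments showed few changes. Of 9 subunits of the ARP2/3 complex, which nucleates branched filaments, none was called (0 higher and 3 lower at an unadjusted p under 0.05 in limma, 0 and 1 in the methods' t-test), with ARPC1A at -0.36 (adjusted p = 0.188) and ARPC2 at -0.29 (adjusted p = 0.32) farthest from 0. Of 14 genes of filament turnover, 1 was lower and 0 were higher (1 higher and 1 lower at an unadjusted p under 0.05 in limma, 1 and 2 in the methods' t-test), the lower one being CORO1C, a coronin that binds filaments at the cell cortex. It read 6.08, 5.99 and 5.92 log2 units in ALI cells against 7.04, 6.89 and 6.65 in SMC cells, which gives a log2 fold change of -0.87 (adjusted p = 0.0163). Leaving out ALI replicate 1 gave an adjusted p of 0.0647, and leaving out SMC replicate 2 one of 0.0906. PFN2, a profilin that delivers actin monomers, stood at 0.78 (adjusted p = 0.057) and was called higher with the passage as a block (adjusted p = 0.0174). Of 6 other actins and actin-related proteins, none was called in limma or at an unadjusted p under 0.05, with ACTR1B at -0.16 and the cardiac actin ACTC1 at -0.14.

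MSN and RDX, which tie actin to the membrane, were lower in ALI cells. Of 12 measured crosslinkers and adhesion links, 2 were lower and 0 were higher (2 higher and 3 lower at an unadjusted p under 0.05 in limma and in the methods' t-test), and the median log2 fold change was 0.00. RDX (radixin) read 7.63, 7.68 and 7.99 in ALI cells against 8.55, 8.58 and 8.65 in SMC cells, at -0.83 (adjusted p = 0.0169), and its second probe set gave -1.04 (adjusted p = 0.0499). MSN (moesin) read 7.49, 7.55 and 7.17 in ALI cells against 8.39, 8.40 and 7.94 in SMC cells, at -0.84 (adjusted p = 0.0436), and its second probe set gave -0.46 (adjusted p = 0.235). Both belong with EZR (ezrin) to the family that anchors filaments below the membrane, and EZR stood at -0.29 (adjusted p = 0.24). The adjusted p of RDX was 0.0851, 0.0515, 0.05 and 0.0905 when ALI replicate 1, ALI replicate 2, SMC replicate 1 and SMC replicate 2 were left out in turn. MSN passed only when SMC replicate 3 was left out, and its adjusted p was 0.0706 to 0.198 with any other array left out. Of 4 genes of the brush border core, none was called (0 higher and 2 lower at an unadjusted p under 0.05 in limma, 0 and 1 in the methods' t-test), with VIL1 (villin) at -0.45 (adjusted p = 0.332).

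Among 11 measured genes of SRF, MRTF and their targets, ANKRD1, a target of stretch and of SRF cofactors, was lower and 0 were higher (1 higher and 2 lower at an unadjusted p under 0.05 in limma and in the methods' t-test). ANKRD1 read 10.32, 10.58 and 10.22 in ALI cells against 11.50, 11.60 and 11.05 in SMC cells, at -1.01 (adjusted p = 0.0259), and its second probe set gave -1.48 (adjusted p = 0.0334). The call held only when ALI replicate 2 or SMC replicate 3 was the array left out, and with any of the others left out the adjusted p was 0.0548 to 0.123. CYR61 was called lower with the passage as a block (log2 fold change -0.73, adjusted p = 0.0241), and without the block its adjusted p was 0.0912. Of 8 intermediate filament genes and of 16 genes of TGF-beta signaling and myofibroblast products, 1 each was lower, namely VIM at -1.34 (adjusted p = 0.00442) and POSTN at -1.50 (adjusted p = 0.0485), and 0 were higher. At an unadjusted p under 0.05, 0 and 3 genes of these lists were higher and 1 and 2 were lower in limma, and 0 and 1 were higher and 1 and 2 were lower in the methods' t-test. The second POSTN probe set gave -0.39 (adjusted p = 0.397), and POSTN did not pass with ALI replicate 1, 2 or 3 or SMC replicate 2 left out (adjusted p = 0.0844 to 0.18).

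Markers of other cell types were read for the same arrays. Of 7 fibroblast markers none was called in limma or at an unadjusted p under 0.05, and the summed signal was 9.23 to 9.45 log2 units in ALI cells and 9.33 to 9.72 in SMC cells. DCN and LUM lay below the 25% quantile on all arrays, while the other fibroblast markers lay above it on every array. Among the latter, COL1A2 averaged 7.56 in ALI and 7.33 in SMC cells, PDGFRB 7.55 and 8.05, and FBLN1 7.19 and 7.39. Of 8 striated muscle markers, MYL1, an alkali light chain of fast skeletal muscle myosin, was lower, with 4.91, 5.54 and 5.69 in ALI cells against 6.46, 6.46 and 6.84 in SMC cells (log2 fold change -1.21, adjusted p = 0.0301). It passed with ALI replicate 3 left out, and with any other array left out its adjusted p was 0.0573 to 0.118. The summed signal of the striated markers was 9.99 to 10.2 log2 units in ALI and 10.3 to 10.6 in SMC cells. The brightest of them, TNNI2, read 9.66, 9.55 and 9.76 in ALI and 9.94, 10.02 and 10.13 in SMC cells (log2 fold change -0.37, adjusted p = 0.15, limma). ACTC1, CKM, MYH2 and TNNT3 lay below the 25% quantile on all arrays. Of 3 pericyte markers RGS5 was higher, at 3.95. PDGFRB stood at -0.50 (adjusted p = 0.441), and MCAM lay below the 25% quantile on all arrays. Their summed signal was 9.68 to 9.74 in ALI and 7.82 to 8.83 in SMC cells, where RGS5 alone read 9.20 to 9.41 in ALI and 5.11 to 5.72 in SMC cells. Of 6 endothelial markers PECAM1 was lower, at -0.50 (adjusted p = 0.0448), a call that ended whichever array was left out (adjusted p = 0.0792 to 0.149). CDH5, KDR and ENG lay below the 25% quantile on all arrays. At an unadjusted p under 0.05, 0 endothelial markers were higher, and 1 in limma and 2 in the methods' t-test were lower. Of 5 immune markers none was called in limma or at an unadjusted p under 0.05. The part of these cell types in the fall of ACTG2 was not tested.

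The genes whose pattern was most like that of ACTG2 A1_at were found by Pearson's r over the 6 arrays, which share the 2 culture types and 3 passages. They were NEU1 (r = 0.997), ABHD18 (r = 0.994), SNX5 (r = 0.991), EFCAB12 (r = 0.991) and ENG (r = 0.989), and 175 genes had an r over 0.9. NEU1, a lysosomal sialidase, was lower in ALI cells at -1.34 (adjusted p = 0.0192), as was ABHD18 at -1.27 (adjusted p = 0.0163), while SNX5, EFCAB12 and ENG did not pass the test. ENG lay below the 25% quantile on all arrays, at 4.17 to 4.22 log2 units in ALI and 4.29 to 4.33 in SMC cells. With the group means taken off, which leaves the variation between passages and between single arrays, the genes most like it were ATP2C1, FLOT1, ADAM28, TCF7L2 and UMAD1. For ACTG2 S1_at the most alike over the 6 arrays were MT3 (r = 0.989), MYL9 (r = 0.988), TNF (r = 0.981), LOC100621607 and DMP1, and for TAGLN they were OXTR (r = 0.981), HNRNPH1 (r = 0.978), MYL3 (r = 0.977), SENP5 and KTN1. Among the members themselves, the r with the group means taken off was -0.648 between the 2 ACTG2 probe sets, 0.906 between ACTG2 S1_at and TAGLN, and -0.783 between ACTG2 A1_at and TAGLN. These values describe 6 arrays only.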

How the data were processed

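RNA of 3 ALI and 3 SMC cultures of IPEC-1 cells was measured on 1 GeneChip Porcine Genome Array each. According to the methods, the authors read the arrays with Affymetrix GCOS, checked them with arrayQualityMetrics and normalized them by GC-RMA. The submitters' processing notes give GCOS version 1.1.1, whereas the methods name a different version. The table they deposited holds log2 values per probe set and does not name its normalization. Arrays have no depth, and their number limits the precision.

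The values were not scaled again. After leaving out 124 Affymetrix control probe sets, limma 3.58.1 (lmFit, then eBayes; R 4.3.3) was applied to the other 23999 probe sets in a model of culture type alone, which were called at a Benjamini-Hochberg adjusted p under 0.05 over all probe sets. Symbols came from the platform annotation. Of these probe sets, 10069 carried 1 symbol, 198 several and 13732 none, and in the lists a gene was represented by its brightest probe set on average. The fit was tested on simulated data.

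Same-numbered arrays share a passage in the labels. Their deviations from the group means correlated across probe sets at 0.34, 0.14 and 0.451. For ALI and SMC arrays of different passages the values were -0.424 to 0.219, so that 1 mismatched pair exceeded a matched one. The main fit did not pair the arrays, and the passage as a replicate block was run as an alternative. Other alternatives were a filter on mean log2 values above 4 or above 6, quantile normalization, median centring, an intensity trend, robust moderation, control probe sets kept, the methods' t-test, averaging of a gene's probe sets, and each array left out.

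The members and lists were chosen with earlier results of these data known. Named are the members, the called genes of each list (up to 6) or otherwise the 2 farthest from 0, and the 5 genes most like a member over the arrays. No sequence and no genome coordinate was used here. The result of 1 of the gene lists is not reported here.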

Additional observations from a re-analysis of the deposited data

Results flagged for a closer look

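The control probe sets of porcine actin lie outside the comparison of the 23999 probe sets. Their gap from the 3′ to the 5′ end averaged 2.93 ± 0.23 log2 units in ALI cells and 2.32 ± 0.0719 in SMC cells (SD over 3 arrays each), a difference of 0.61, and it is given here because every ALI array lay above every SMC array. The exact permutation test gave this gap an adjusted p of 0.317. Of 19 control pairs, 6 had no overlap between the groups, 3 with a larger and 3 with a smaller gap in ALI cells. The 19 include pairs of bacterial and phage controls, whose gaps do not bear on the RNA of the cells. Among the 6, Bs-thr (0.27) and TrpnX (-0.29) are such pairs. A GAPDH control pair differed in the same direction as actin, by 0.90. The other GAPDH pairs differed by -0.01 and -0.16, and the IRP pair by -1.17. With the control probe sets kept in the fit, the 5′ probe set of actin stood at a log2 fold change of -0.61 (adjusted p = 0.141, limma) and the 3′ one of 0.00 (adjusted p = 0.996).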

How the results depend on the processing

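ACTG2 A1_at was called lower under all alternatives other than the methods' t-test after adjustment, where 0 of the 9 probe sets were lower (adjusted p = 0.249 for ACTG2), and the fit without ALI replicate 1. With 1 array left out, 0 to 1 of the 9 were lower and 0 to 1 were higher (ACTG2 S1_at, without ALI replicate 3), and the log2 fold change of A1_at was -3.01 to -2.27. Over all probe sets 159 were called higher and 296 lower; a replicate block for passage gave 480 and 796, the adjusted methods' t-test 0 and 0, and leaving out 1 array 42 to 174 and 71 to 258. Signs turned only where no call was made. For ACTB S1_at the log2 fold change was 0.07 after quantile normalization, 0.00 after median centring and -0.04 to 0.06 with 1 array left out, and the mean over both ACTB probe sets gave 0.06. With 1 array left out, ACTA2 had -0.01 to 0.19, TAGLN -0.48 to 0.47 and DES A1_at -0.03 to 0.16. The block changed no call among the 9. The mean over both ACTG2 probe sets gave -0.99 (adjusted p = 0.043). Members whose mean lay below a filter on dim probe sets have no value under it. The cause of these shifts was not tested.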

Other observations

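Among the listed SRF targets, the immediate early genes FOS and EGR1, whose values were singled out after they were seen, were highest at passage P113 in both culture types. FOS read 9.36, 10.02 and 11.84 log2 units in ALI cells and 10.33, 9.86 and 12.38 in SMC cells at passages P109, P111 and P113. EGR1 read 8.85, 9.76 and 11.17 in ALI cells and 10.49, 9.95 and 11.66 in SMC cells. Between the culture types neither passed the test in limma, at log2 fold changes of -0.45 (adjusted p = 0.84) and -0.77 (adjusted p = 0.617).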
